A study of Mus musculus with 4 samples.

Results

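The interleukin-1 (IL-1) cytokines, their receptors and the inflammasome were followed in RNA-seq of tibial bone marrow through 10 genes, Il1a, Il1b, Il1rn, Il1r1, Il1r2, Il1rap, Nlrp3, Casp1, Pycard and Il18. They were picked by symbol out of 55401 genes, because Il1b was known from these same libraries to be higher after exercise. The contrast between the groups therefore chose the members, and its values are given below as a description, without p values. All 10 genes were found, with 38 annotated transcripts, all 10 are annotated as protein-coding on GRCm38, and all 10 passed the filter on low values (a mean of at least 0.1 FPKM).

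The study asked how exercise changes the marrow of mice with diet-induced obesity. All mice were wild-type male C57/B6 mice, 8 weeks old at the start, and all received a high-fat diet (HFD). The obesity group (Ob) had the diet alone, and mice that combined it with exercise (Ob + Exe) also ran on a treadmill at moderate intensity for 12 weeks under the same diet. Each group is represented by 2 libraries, one per mouse, so every comparison is of 2 mice against 2. A lean group was not analysed here, so values refer to obese mice only. The labels give the tissue as bone marrow, yet they list mesenchymal stem cells under cell line and fibroblast under cell type. The summed level of 12 mesenchymal stem cell and fibroblast markers was 116 to 183 FPKM, against 22874 to 57808 FPKM for 9 mature neutrophil markers and 53603 to 81456 FPKM for 8 erythroid markers, so transcripts of blood-forming lineages far outweighed them. FPKM stands for fragments scaled to transcript length and to library size, which allows levels of different genes to be compared. Here it was also scaled between the libraries, and read equivalents (coverage multiplied by length over the read length) give the depth behind a value. The libraries held 44310505 to 53038186 read equivalents on transcripts, and the 10 genes held from 108 (Il1a in Ob + Exe replicate 1) to 5017 (Il1b in Ob + Exe replicate 2).

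IL-1 is the classical fever cytokine, made in marrow mainly by neutrophils, monocytes and macrophages. IL-1α (Il1a) and IL-1β (Il1b) bind the receptor chain IL-1R1, which recruits the accessory protein IL-1RAP and signals through MyD88 to NF-κB. The receptor antagonist (Il1rn) occupies IL-1R1 without signalling, and the decoy receptor IL-1R2 binds the cytokine but lacks a signalling domain. Pro-IL-1β and pro-IL-18 are inactive until caspase-1 cuts them inside an inflammasome, which the sensor NLRP3 builds with the adaptor ASC (Pycard). In bone, IL-1 is known as a stimulus of osteoclast formation. An mRNA level gives no information on the cutting or release of the proteins.

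The promoters of the genes for both IL-1 cytokines are shown because the genes are neighbours on the minus strand of chromosome 2, while only Il1b separated the groups. Il1b lies at chr2:129364570-129371139 and Il1a at chr2:129299610-129309972 of GRCm38, and both are protein-coding. The 120 bases before each annotated start were taken from RefSeq (GRCm38.p6, minus strand, 5′ to 3′), at chr2:129371140-129371259 for Il1b and chr2:129309973-129310092 for Il1a. Capitals mark matches to searched motifs.
Il1b: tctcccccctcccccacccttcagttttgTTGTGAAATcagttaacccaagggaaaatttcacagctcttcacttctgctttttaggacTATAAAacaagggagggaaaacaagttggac
Il1a: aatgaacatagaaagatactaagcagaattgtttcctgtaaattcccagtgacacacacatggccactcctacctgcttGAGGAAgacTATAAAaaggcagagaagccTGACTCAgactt
In Il1b, the capitals mark a C/EBP motif (TTNNGNAAT) that begins 91 bases before the start and a TATA motif (TATAAA) that begins 31 bases before it. In Il1a, they mark a PU.1 motif (GAGGAA) 41 bases, a TATA motif 32 bases and an AP-1 motif (TGANTCA) 12 bases before the start. Both strands of the 250 bases before the start were searched in 14 RefSeq promoters of the 10 genes. The NF-κB consensus was GGGRNWYYCC, where R is A or G, W is A or T, Y is C or T and N is any base. Of the 32851 promoters in the RefSeq table, 12.37% held the TATA motif, 10.16% the C/EBP motif, 23.25% the PU.1 motif, 6.749% the AP-1 motif and 3.899% the NF-κB consensus. A TATA motif was also found for Il18, 175 bases before its start on the opposite strand, and an NF-κB consensus was found at one promoter each of Il1r1 and Nlrp3. The Il18 stretch searched ended at position 50554699, while the transcript with most of the Il18 FPKM starts at position 50565374. For Il1r2 the stretch ended at position 40086092, beyond the start of its main transcript at 40084698. Neither stretch thus lies directly before the start of the main transcript. The C/EBP motif of Il1b was also present at both Il1r1 promoters and at one of Il1rn, the AP-1 motif at another of Il1rn, and the PU.1 motif at Pycard, Casp1 and one promoter of Nlrp3. These are matches of letters and not sites shown to be bound.

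Il1rn is annotated with several first exons, and the start of its coding sequence sets which form of the antagonist is made. The starts are shown because the libraries differed in the transcript to which the reads were assigned. Sequences are written 5′ to 3′ (chromosome 2, plus strand, GRCm38) from the start codon to the end of the first coding exon that all share (chr2:24345520-24345571, in capitals), and lower case marks the coding bases particular to each transcript.
ENSMUST00000114482: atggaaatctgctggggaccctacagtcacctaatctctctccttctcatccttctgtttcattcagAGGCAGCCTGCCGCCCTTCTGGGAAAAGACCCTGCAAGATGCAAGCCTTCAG
ENSMUST00000114487: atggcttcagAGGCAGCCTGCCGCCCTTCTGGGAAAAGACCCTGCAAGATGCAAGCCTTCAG
ENSMUST00000114485: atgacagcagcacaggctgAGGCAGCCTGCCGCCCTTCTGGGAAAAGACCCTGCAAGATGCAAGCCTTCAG
ENSMUST00000114482 starts its coding sequence at position 24345453 with 67 bases of its own and has 178 codons, the known length of the secreted antagonist with its signal peptide. ENSMUST00000114487 starts upstream at position 24336983 with 10 bases of its own and has 159 codons, the known length of the form that stays in the cell. ENSMUST00000114485 has 19 bases of its own and 162 codons.

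Il1b was higher in both Ob + Exe libraries than in both Ob libraries. Its scaled FPKM was 24.1 in Ob replicate 1, 25.5 in Ob replicate 2, 56.9 in Ob + Exe replicate 1 and 69.2 in Ob + Exe replicate 2. The groups were far apart and the mice of each group were close. Ob averaged 24.8 ± 1.04 (SD, n = 2), and Ob + Exe averaged 63.0 ± 8.68 (SD, n = 2), a ratio of 2.54. On the log2(FPKM + 0.1) scale the difference was 1.34 (standard error 0.209), and it stayed between 1.20 and 1.48 when each library was left out in turn. Behind these values were 2102 and 2184 read equivalents in Ob, against 4419 and 5017 in Ob + Exe. By its mean level Il1b ranked 1440 among the 18596 genes tested, and only 3 of the 186 genes called higher, Il1b among them, had a mean at least as high. In bulk marrow, a different number of cells of a type and a different amount of RNA per cell cannot be told apart.

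**Figure D1:**
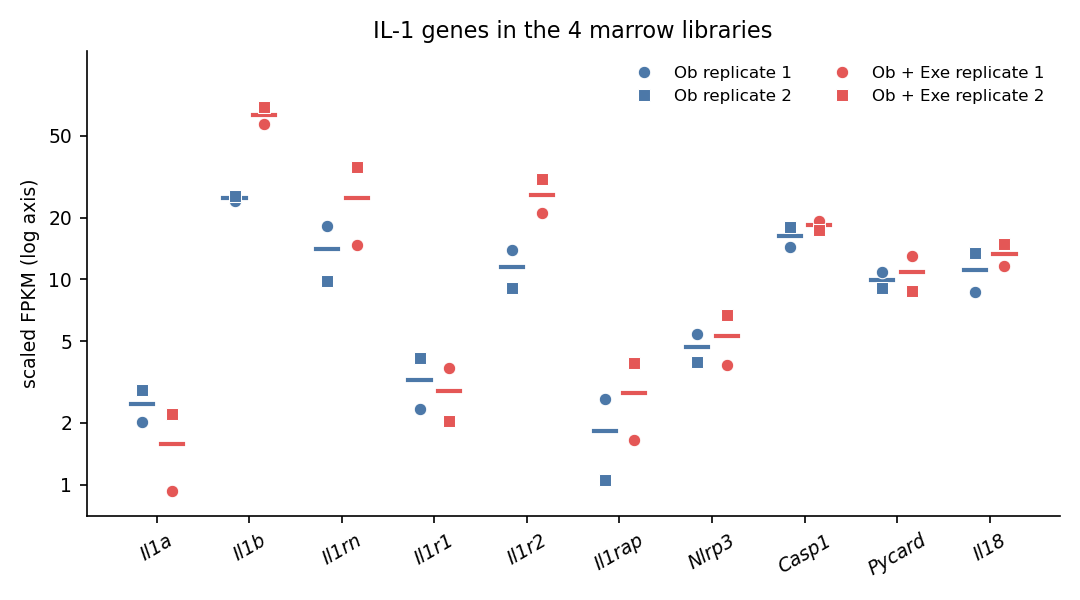
Scaled FPKM (log axis) of the 10 IL-1 genes in each of the 4 libraries; blue points are Ob and red points Ob + Exe, circles are replicate 1 and squares replicate 2, and bars are group means. For Il1b and Il1r2 both red points lie above both blue points, and for the other 8 genes the groups overlap.

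Il1a, the other cytokine, was low. Its scaled FPKM was 2.02 and 2.90 in Ob, against 0.929 and 2.21 in Ob + Exe, with the lowest value in Ob + Exe replicate 1 and the highest in Ob replicate 2. The groups overlapped, and the log2 difference was -0.71 (standard error 0.524), from -1.29 to -0.13 with each library left out. An opposite-strand gene, Gm14023, shares 222 exon bases with Il1a, and the sources do not state that reads were counted by strand. In read equivalents the log2 difference was -0.76 for Il1a alone and -0.25 for both genes summed, and the reads of the pair cannot be told apart. For Il1b, the antisense gene Il1bos shares 25 exon bases, and the sum of both gave 1.32 against 1.39 for Il1b alone. Il1b was 11.9 and 8.79 times as abundant as Il1a in Ob, and 61.3 and 31.3 times in Ob + Exe.

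Il1rn (chr2:24336853-24351494), the receptor antagonist, did not separate the groups. Its scaled FPKM was 18.1 and 9.85 in Ob, against 14.7 and 35.1 in Ob + Exe. Ob + Exe replicate 2 stood highest, while Ob + Exe replicate 1 lay between the Ob libraries, so the groups overlapped. The means were 14.0 ± 5.87 (SD, n = 2) and 24.9 ± 14.4 (SD, n = 2), with a log2 difference of 0.76 (standard error 0.493) that ranged from 0.14 to 1.39 with each library left out. The ratio of Il1b to Il1rn was 1.33 and 2.59 in Ob, against 3.86 and 1.97 in Ob + Exe. Il1b was thus above its antagonist in every library, but this ratio overlapped between the groups.

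Il1r2 (chr1:40074079-40125231), the decoy receptor, was the second gene whose groups did not overlap. Its scaled FPKM was 13.9 and 9.08 in Ob, against 21.0 and 30.8 in Ob + Exe. Means were 11.5 ± 3.42 (SD, n = 2) and 25.9 ± 6.96 (SD, n = 2), a ratio of 2.25, and the log2 difference was 1.17 (standard error 0.319). The difference was 0.87 to 1.48 with each library left out, and the call described below was lost without Ob replicate 1, without Ob replicate 2 and without Ob + Exe replicate 2. The signalling receptor Il1r1 (chr1:40225080-40317257) was lower in level, at 2.34 and 4.13 in Ob, against 3.69 and 2.04 in Ob + Exe. The groups overlapped with a log2 difference of -0.17 (standard error 0.462), and the sign changed with 2 of the 4 libraries when each was left out in turn (-0.58 to 0.24). The decoy exceeded the signalling receptor in every library, by 5.95 and 2.20 times in Ob, against 5.69 and 15.1 times in Ob + Exe, with overlap between the groups. Il1rap (chr16:26581704-26730117), the accessory chain, was at 2.61 and 1.06 in Ob, against 1.66 and 3.91 in Ob + Exe. Its groups overlapped, with a log2 difference of 0.59 (standard error 0.616) that ranged from -0.03 to 1.20.

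None of the inflammasome genes, nor Il18, separated the groups. Nlrp3 (chr11:59541568-59566956), the sensor, was at 5.40 and 3.96 in Ob, against 3.82 and 6.73 in Ob + Exe, with a log2 difference of 0.13 (standard error 0.383). Casp1 (chr9:5298508-5307290), the protease, was at 14.5 and 18.0 in Ob, against 19.3 and 17.5 in Ob + Exe. The Casp1 difference of 0.19 had the smallest standard error of these genes, 0.231. Pycard (chr7:127989708-127993867), the adaptor, was at 10.9 and 9.07 in Ob, against 13.02 and 8.79 in Ob + Exe. Its difference of 0.11 (standard error 0.291) became -0.04 with limma voom on read equivalents. Il18 (chr9:50554827-50581840), the second substrate of caspase-1 here, was at 8.66 and 13.5 in Ob, against 11.6 and 14.9 in Ob + Exe, a difference of 0.28 (standard error 0.306). Il1b was 1.66 and 1.42 times as abundant as Casp1 in Ob, against 2.94 and 3.95 times in Ob + Exe. It was 2.78 and 1.89 times as abundant as Il18 in Ob, against 4.90 and 4.66 times in Ob + Exe. Neither ratio overlapped between the groups, but Il1b was chosen because it was higher after exercise, so nothing further is read from this.

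**Figure D2:**
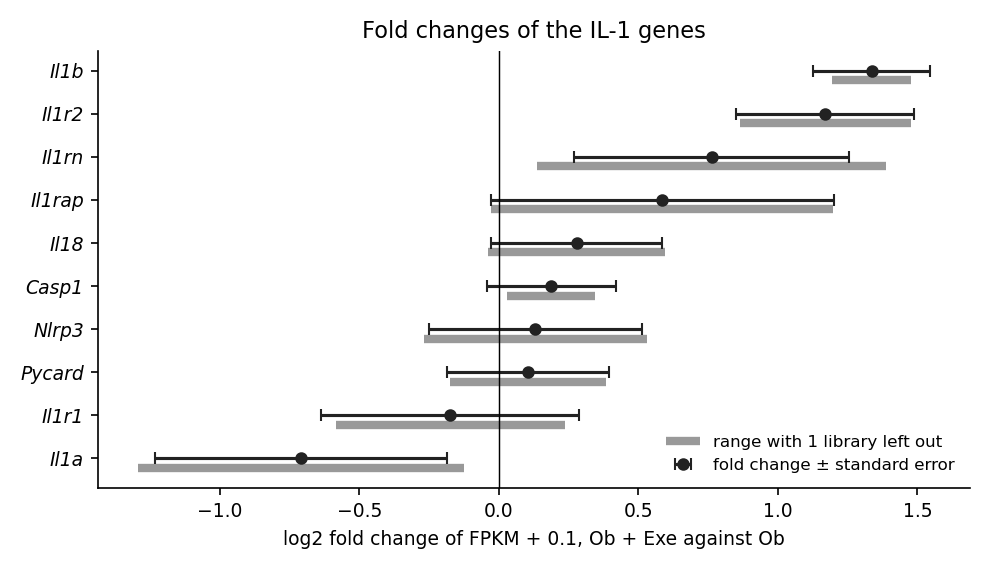
Log2 fold change of FPKM + 0.1 (Ob + Exe against Ob) of each IL-1 gene; points with bars are the value and its standard error, and grey bars are the range when 1 of the 4 libraries is left out. The ranges of Il1b (1.20 to 1.48) and Il1r2 (0.87 to 1.48) lie to the right of 0, as do those of Il1rn and Casp1, while those of Il1r1, Il1rap, Nlrp3, Pycard and Il18 reach across it.

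Across all genes, a gene was called at an unadjusted p under 0.05 in limma and a log2 difference beyond 1. Of the 10 genes, 2 were called, Il1b and Il1r2, both higher in Ob + Exe. In the background of 18596 genes, 3.74% were called, which is 186 genes higher and 510 lower. Both Ob + Exe libraries were above both Ob libraries for 2 of the 10 genes, against 14.3% of all genes tested, and below them for 0, against 18.3%. The log2 difference was above 0 for 8 members and below 0 for 2, with a median of 0.23, beside a median of -0.02 and 48.3% above 0 over all genes tested. Since the genes were chosen on this contrast, nothing is read from these counts. After Benjamini-Hochberg adjustment in limma, 0 genes had a p under 0.05 (the smallest was 0.738), while 940 had an unadjusted p under 0.05. In a design of this size the smallest two-sided p of an exact permutation test is 0.333.

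The order of levels was led by Il1b in both groups. In Ob, Il1b (24.8 FPKM) was followed by Casp1 (16.2), Il1rn (14.0), Il1r2 (11.5), Il18 (11.1) and Pycard (9.98), and then by Nlrp3 (4.68), Il1r1 (3.24), Il1a (2.46) and Il1rap (1.83). The ranges of neighbours in this order overlapped except below Il1b and below Pycard. In Ob + Exe, Il1b (63.0) was followed by Il1r2 (25.9), Il1rn (24.9) and Casp1 (18.4), then Il18 (13.2) and Pycard (10.9), Nlrp3 (5.27), and Il1r1 (2.86), Il1rap (2.78) and Il1a (1.57). Neighbours did not overlap below Il1b, below Casp1, below Pycard and below Nlrp3. The decoy receptor and the antagonist thus stood above the signalling receptor and its accessory chain in both groups.

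The transcripts of a gene are measured separately by StringTie, which divides reads over shared exons between them. Il1b was carried by its full-length coding transcript ENSMUST00000028881, with 90.1% and 90.9% of the gene's FPKM in Ob, against 95.1% and 95.3% in Ob + Exe. The rest lay on a retained-intron transcript and a short processed transcript. The share was 4.74 percentage points higher in Ob + Exe, but 1.88 points by read equivalents, which weight long transcripts more. Coding transcripts alone gave Il1b a log2 difference of 1.41.

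For Il1rn, the secreted-form transcript ENSMUST00000114482 held 77.0% and 77.7% of the FPKM in Ob and 69.1% in Ob + Exe replicate 2. In Ob + Exe replicate 1 it is listed at 0, and the upstream-start transcript ENSMUST00000114487 held 90.4% there, against 15.3%, 19.6% and 21.5% in the other libraries. The coding sequences of both transcripts differ at their upstream ends, as shown above. For Il1r1 another library stood apart. Its transcript ENSMUST00000027241 held 98.9% in Ob replicate 1 and 100% in both Ob + Exe libraries, but is listed at 0 in Ob replicate 2, where ENSMUST00000114795 held the FPKM. In both genes the main transcript differed in a single library. The shares of ENSMUST00000114482, ENSMUST00000114487 and ENSMUST00000027241 nevertheless did not overlap between the groups. Outside the single library of each gene, the shares lay much closer together, and no group difference is read from them.

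**Figure D3:**
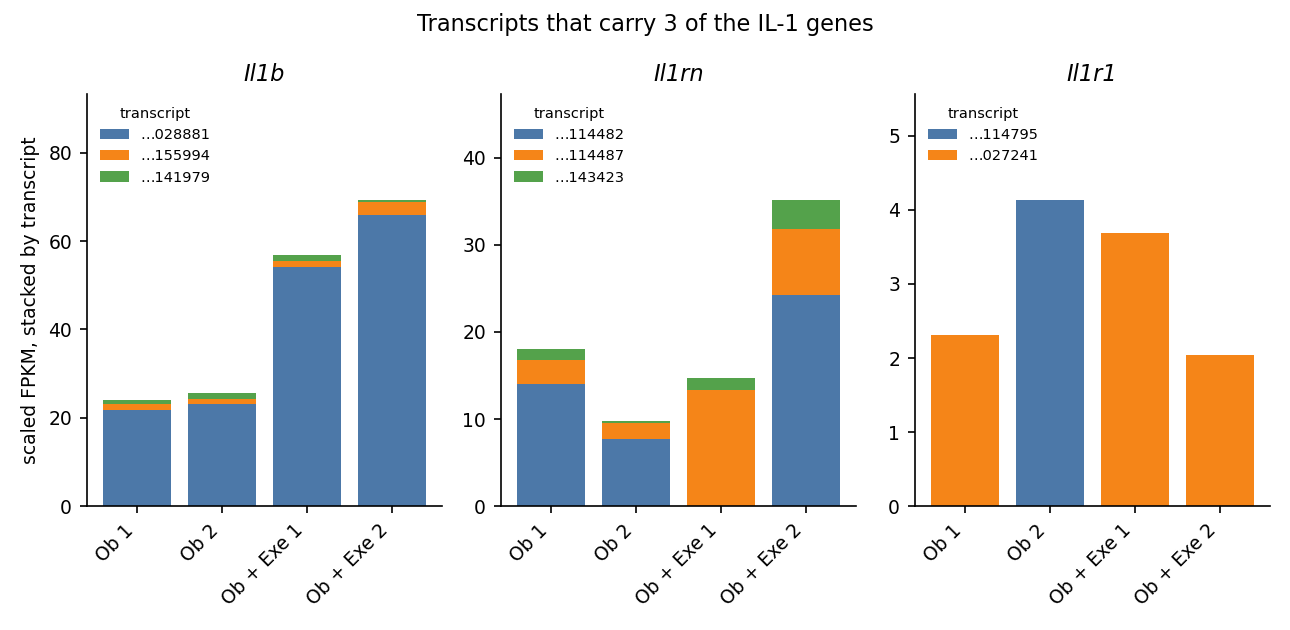
Scaled FPKM of Il1b, Il1rn and Il1r1 in each library, stacked by transcript (last digits of the Ensembl identifier; transcripts that are low in all libraries are not drawn). The full-length transcript fills most of each Il1b bar, while the Il1rn bar of Ob + Exe replicate 1 and the Il1r1 bar of Ob replicate 2 are carried by another transcript than in the other libraries.

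The remaining genes kept 1 main transcript in all libraries, and Il1a has a single annotated one. Il1r2 had 90.8% to 98.7% of its FPKM in ENSMUST00000027243, the 410-codon decoy receptor, and Nlrp3 97.1% to 100% in ENSMUST00000101148. Casp1 had 79.7% to 88.0% in ENSMUST00000027015, and Pycard 72.4% to 100% in ENSMUST00000033056. The Il18 transcript ENSMUST00000214117 held 83.2% and 77.9% in Ob, against 96.4% and 89.2% in Ob + Exe. For Il1rap, the 570-codon membrane form ENSMUST00000023156 held 81.3% and 99.4% in Ob, against 61.9% and 79.8% in Ob + Exe, which did not overlap, and the short 360-codon transcript ENSMUST00000174202 held 16.8% and 0% in Ob, against 38.1% and 14.0% in Ob + Exe. The short form overlapped between the groups.

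Mature neutrophils are known to carry Il1b, Il1r2 and Il1rn at high levels, so 9 of their markers were set beside these genes, and all 9 were above 0 in every library. None of the 9 was called, beside 3.74% of all genes tested. Their summed FPKM was 40374 and 22874 in Ob, against 29949 and 57808 in Ob + Exe. S100a8 and S100a9 held 92.8% to 94.0% of this sum. The groups overlapped, with Ob + Exe replicate 1 below Ob replicate 1, and without S100a8 and S100a9 the sum kept this order, at 2503 and 1377 in Ob, against 2152 and 3651 in Ob + Exe. All 9 log2 differences were above 0, beside 48.3% of all genes tested, with a median of 0.32. Of the 9, Csf3r, the G-CSF receptor, was higher in both Ob + Exe libraries (141 and 134 in Ob, against 185 and 166). Over all genes tested this share was 14.3%. Il1rn and Il1rap were ordered over the 4 libraries as this sum was, and Il1r1 in reverse. Among 18587 genes tested outside these markers, 5.58% had the same order and 4.85% the reverse. The monocyte and the basophil and mast cell marker sums also had the same order, so it is not particular to mature neutrophils. Il1b was not so ordered, since Ob + Exe replicate 1 had fewer neutrophil marker transcripts than Ob replicate 1 and more Il1b. Per 1000 FPKM of the marker sum, Il1b was 0.596 and 1.12 in Ob, against 1.90 and 1.20 in Ob + Exe, and Il1r2 was 0.345 and 0.397 in Ob, against 0.701 and 0.533 in Ob + Exe. Neither overlapped, although the Il1b values of Ob replicate 2 and Ob + Exe replicate 2 were close. Il1b was chosen for its difference between the groups, so its separation here is no further result. Il1rn per 1000 FPKM of the sum was 0.449 and 0.431 in Ob, against 0.492 and 0.608 in Ob + Exe, also without overlap. S100a8 and S100a9 make up most of this sum, so the lack of overlap of these ratios is shown only for the sum that includes them. Ratios to the sum without them were not computed, and nothing is read from the separation of Il1rn here.

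**Figure D4:**
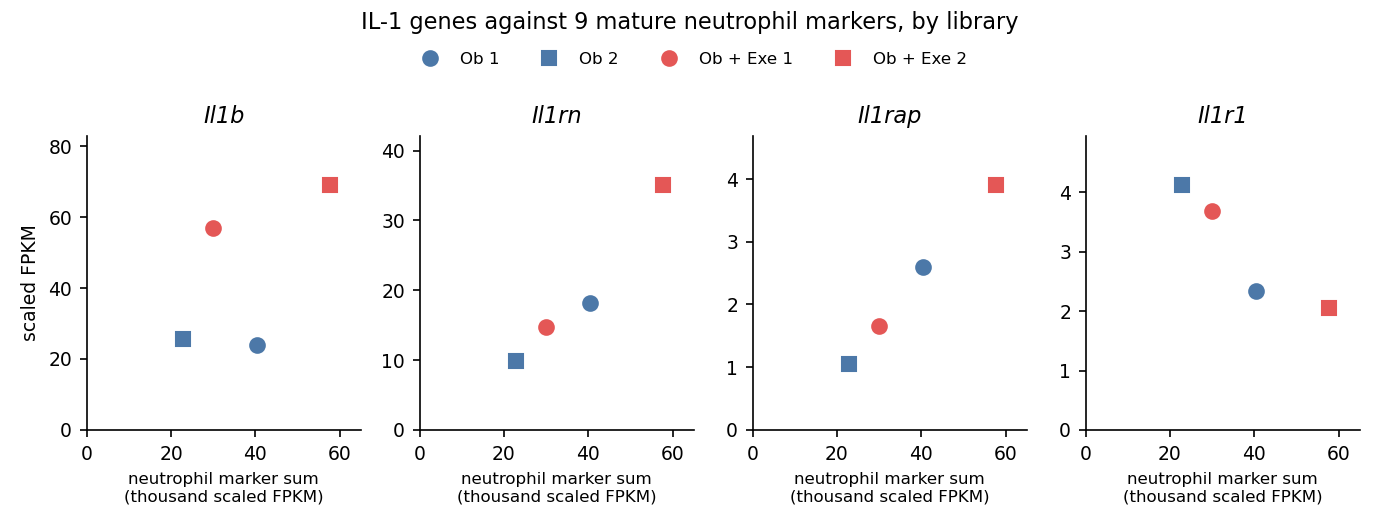
Scaled FPKM of Il1b, Il1rn, Il1rap and Il1r1 (vertical axes) against the summed scaled FPKM of 9 mature neutrophil markers (horizontal axes, in units of 1000), with 1 point per library. Il1rn and Il1rap are ordered as the marker sum and Il1r1 in reverse, whereas both Ob + Exe points of Il1b lie above both Ob points.

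Other cell types were checked in the same way. The sum of 7 monocyte markers was 517 to 574 FPKM in Ob and 533 to 623 in Ob + Exe, with 46.7% to 57.9% of it from Ly6c2. Of the other monocyte markers, Ccr2, F13a1, Fn1 and Ms4a6c were higher in both Ob + Exe libraries, and Csf1r and Cx3cr1 overlapped. The log2 differences of Ccr2, F13a1, Fn1 and Ms4a6c were 0.20, 0.18, 0.40 and 0.34, with standard errors of 0.193 to 0.224. Over all genes tested, 14.3% were higher in both Ob + Exe libraries and 18.3% lower in both. Without Ly6c2 the sum was 242 and 249 in Ob, against 284 and 290 in Ob + Exe. It was thus higher after exercise along with Il1b and Il1r2. Of the 7 markers 0 were called, beside 3.74% of all genes tested. Per 1000 FPKM of the full sum Il1b was 41.9 and 49.4 in Ob, against 107 and 111 in Ob + Exe. Il1rn per 1000 FPKM of that sum was 31.6 and 19.1 in Ob, against 27.6 and 56.4 in Ob + Exe, and overlapped. The sum of 10 macrophage markers was 142 to 169 in Ob and 143 to 169 in Ob + Exe. Of these markers, 2 (Adgre1 and Vcam1) were higher in both Ob + Exe libraries. Another 4 (Mrc1, C1qa, Cd163 and Cd5l) were lower in both. Sums higher in both Ob + Exe libraries were those of adipocytes (6 markers, 73.9 to 74.7 in Ob and 101 to 121 in Ob + Exe, with Lep at 0 in all libraries and Plin1 in all but Ob replicate 1; Fabp4 held 77.1% to 85.6% of the sum, which still separated at 15.5 and 16.9 against 17.4 and 23.0 without it but overlapped without Fabp4 and Lpl), dendritic cells (5 markers, 19.0 to 21.0 and 23.6 to 27.2) and skeletal muscle (4 markers, 1.40 to 4.60 and 6.48 to 7.21, with Myh4 and Ckm at 0 in Ob replicate 2). Those of B cells (6 markers, 180 to 189 and 119 to 150), endothelium (5 markers, 14.9 to 16.5 and 10.5 to 11.0) and osteoblasts (5 markers, 13.9 to 19.8 and 13.1 to 13.7) were lower in both Ob + Exe libraries. The sums of neutrophil precursor, T and NK cell, erythroid, megakaryocyte, basophil and mast cell, and mesenchymal stem cell and fibroblast markers overlapped between the groups. Without Ngp the precursor sum was higher in both Ob + Exe libraries (4644 and 3205 in Ob, against 5222 and 4983). It overlapped without Ngp and Camp. The muscle sum overlapped without Acta1, the osteoblast sum without Runx2, and the dendritic cell sum without Siglech and Cd209a. Those of B cells and endothelium stayed lower without their leading markers. Without Hbb-bs the erythroid sum was lower in both Ob + Exe libraries (39752 and 44878 in Ob, against 36160 and 37928). Without Hbb-bs and Hba-a1 the erythroid sum overlapped. None of the 5 megakaryocyte differences was above 0, and Gp1bb (-1.78) was called lower. The part of these cell types in the values of Il1b and Il1r2 was not tested.

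The rest of the pathway was examined in 4 lists of 94 genes, of which 79 passed the filter on low values. With limma, 0 were called higher and 1 was called lower, and 2 of the 79, Mmp13 and Socs3, had an unadjusted p under 0.05. Those 2 genes are 2.53% of the list genes tested, beside 5.05% of all genes tested. Of all genes tested 3.74% were called in either direction, so few or no calls would be usual in lists of this size. There were 56 log2 differences above 0 (70.9%, beside 48.3% of all genes tested) and 23 below. Both Ob + Exe libraries were above both Ob libraries for 14 genes (17.7%, beside 14.3%) and below for 7 (8.86%, beside 18.3%). Of 14 other ligands and receptors of the IL-1 family, 7 were tested and 0 called, with a median of 0.24. Il1f9 (IL-36γ, an epithelial and myeloid cytokine) was at 26.4 and 14.2 in Ob, against 18.0 and 52.6 in Ob + Exe, and had the library order of Il1rn. Il18bp, which neutralises IL-18, was at 10.2 and 10.6 in Ob, against 17.2 and 12.0 in Ob + Exe, a log2 difference of 0.46 (standard error 0.267). Il18rap, a chain of the IL-18 receptor, was at 33.0 and 37.1 in Ob, against 38.9 and 34.3 in Ob + Exe, and Il1rl1, the IL-33 receptor, at 8.13 and 7.55 in Ob, against 6.97 and 10.4 in Ob + Exe.

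All 26 genes of signalling downstream of the IL-1 receptor were tested. Of these 0 were called, beside 3.74% of all genes tested. There were 18 log2 differences above 0 and 8 below, with a median of 0.07. Both Ob + Exe libraries were above both Ob libraries for 6 of the 26, beside 14.3% of all genes tested. They were below for 3, beside 18.3%. The 4 signalling genes with the highest levels, Tab2 (-0.10), Chuk (0.07), Ikbkb (0.22) and Mapk14 (0.17), overlapped between the groups. Tab2 links TRAF6 to the kinase TAK1, Chuk and Ikbkb are the IκB kinases, and Mapk14 is p38α. The 27 other inflammasome genes were all tested with 0 called, 21 above 0 and 6 below, and a median of 0.18. Gsdmd, the pore through which IL-1β leaves the cell, was at 40.6 and 55.2 in Ob, against 70.3 and 54.9 in Ob + Exe. Txnip (0.02), Pstpip1 (0.03) and Ddx3x (-0.03), which are described as regulators of the inflammasome, also overlapped.

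Genes that IL-1 is known to induce had values on both sides of 0. Of 27 such genes 19 were tested, with 11 log2 differences above 0, 8 below and a median of 0.10. The 1 gene called (5.26% of the 19, beside 3.74% of all genes tested) was lower, Mmp13, the collagenase of osteoblasts and cartilage cells. Its scaled FPKM was 4.09 and 5.96 in Ob, against 2.05 and 1.29 in Ob + Exe, a log2 difference of -1.54 (standard error 0.402, adjusted p = 0.959 from limma over all genes tested). Among the most abundant, Nfkbia (-0.14), Nfkbiz (0.35), Birc3 (0.10) and Cebpd (0.44) were not called. Cebpd, a C/EBP factor, was at 28.0 and 25.2 in Ob, against 32.9 and 39.6 in Ob + Exe, without overlap. Socs3, a feedback inhibitor of cytokine signalling that was named after its values were seen, was at 3.28 and 3.30 in Ob, against 6.71 and 5.50 in Ob + Exe, with a log2 difference of 0.87 within the threshold of 1. Ptgs2, the inducible cyclooxygenase, likewise named after its values were seen, was at 0.171 and 0.0428 in Ob, against 0.0976 and 0.982 in Ob + Exe, so its log2 difference of 1.23 (standard error 1.04) came from Ob + Exe replicate 2.

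**Figure D5:**
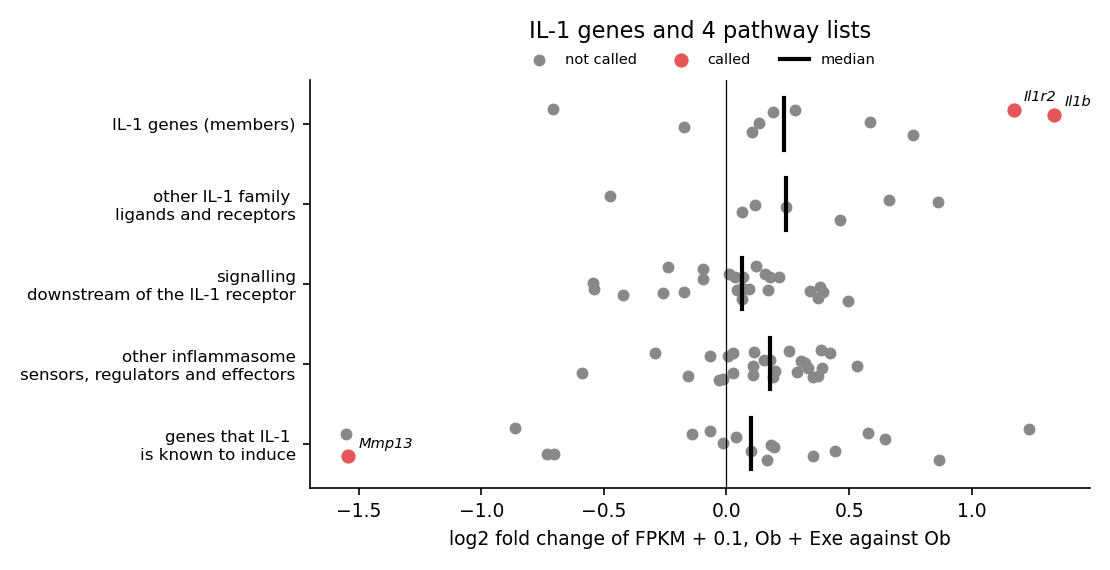
Log2 fold change of FPKM + 0.1 (Ob + Exe against Ob) of the 10 IL-1 genes and of the tested genes of 4 lists, with 1 point per gene; red points are called, and vertical bars are list medians. Il1b and Il1r2 lie beyond 1 at the right and Mmp13 at the left. Of the genes not called, Ptgs2 (1.23) and Tnfsf11 (-1.55), both below 1 FPKM in every library, also lie beyond 1 (both named after their values were seen), and each list's median lies between 0.07 and 0.24.

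Among 12385 genes whose mean after scaling between the libraries was at least 1 FPKM, outside the IL-1 genes, those whose pattern was most like Il1b over the 4 libraries were Fos, Hcar2, B130046B21Rik, Ednra and Gm43181. Likeness was measured as the Euclidean distance between centred log2 values. Fos, an AP-1 subunit and immediate early gene, was closest, at a distance of 0.0598, with 5.80 and 6.25 in Ob, against 13.5 and 16.2 in Ob + Exe. Hcar2, the receptor for β-hydroxybutyrate and niacin, was at 3.99 and 4.58 in Ob, against 9.82 and 12.5 in Ob + Exe. Of the IL-1 genes, Il1r2 was nearest to Il1b, at a distance of 0.554, behind which Il1rn (1.12) and Il18 (1.13) came next. Among all genes compared, with the IL-1 genes included, Il1r2 ranked 49, Il1rn 1767 and Il18 1836 by distance. These libraries also defined the contrast, so the likeness is a description over 4 points.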

How the data were processed

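RNA-seq of tibial marrow from 2 Ob and 2 Ob + Exe mice was used. Per the labels and the study's methods, the authors trimmed reads with fastp, removed rRNA reads, aligned to GRCm38 with HISAT2, filtered with SAMtools and ran StringTie against GENCODE vM25. Coverage per transcript, a signal not normalized for depth, was deposited by the authors, and so was FPKM, which is coverage divided by 1 constant per library. The authors tested with DESeq2. Whole read counts cannot be recovered from these values.

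Transcript FPKM were summed to genes and scaled with median-of-ratios factors (0.945 to 1.04). Genes whose mean FPKM reached 0.1 entered the test, limma (version 3.58.1, R version 4.3.3) on log2(FPKM + 0.1), with an intensity trend and Benjamini-Hochberg adjustment over all 18596 genes. This scale understates the change of low genes. Calls used the thresholds of the study (unadjusted p under 0.05, log2 difference beyond 1). Read equivalents are coverage multiplied by length over 150 bases. Scripts used Python 3.11.15, pandas 2.3.3 and matplotlib 3.10.9, and the test was checked on simulated data. Annotation in the reference was GENCODE vM21, and promoters came from RefSeq.

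The members and lists were chosen with earlier results of these data known. Named genes were the 10 members, the called genes of each list or otherwise its 4 most abundant, and the 5 genes closest to Il1b; for the list of induced genes both were named. Socs3, Ptgs2 and Tnfsf11, and markers beside a result, were named after their values were seen. Replicates are taken to be separate mice, as the study describes. The standard errors and p values of limma are moderated. They combine each gene's spread between mice (2 residual degrees of freedom) with a spread estimated over all genes (3.79 prior degrees of freedom). For a single gene they can thus be smaller or larger than the spread between its mice alone would give. Alternatives were other minimum values, pseudocounts, scalings, voom, no trend, the replicate block, coding transcripts, summed overlapping genes and leaving out each library.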

Additional observations from a re-analysis of the deposited data

How the results depend on the processing

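Il1b was called in all 14 other settings that gave a call and Il1r2 in 11 of 14. Over the 10 of these settings that kept all libraries, the log2 difference was 1.25 to 1.38 for Il1b and 1.08 to 1.18 for Il1r2. The genes were chosen on this contrast and every setting reuses the same libraries. Repeated calls thus describe the dependence on processing and are no further support. The call of Il1r2 was lost in 3 of the 4 settings that left out 1 library. The count of genes called, 696 with 186 higher and 510 lower, fell to 270 with a minimum mean FPKM of 1, to 222 with a pseudocount of 1 and to 459 with limma voom, and was 1060 without the intensity trend. It ranged from 744 to 1920 with 1 library left out, where it was 1920 without Ob + Exe replicate 2 and 1260 without Ob + Exe replicate 1. Quantile normalization gave 246 higher and 416 lower, and without scaling the median of all genes was -0.10. Titles give both groups the replicate numbers 1 and 2, with no source for a pairing of mice, and differences between replicates 1 and 2 correlated between the groups at -0.11 over all genes tested and at -0.24 over 12409 genes with a mean of at least 1 FPKM before scaling. With the replicate block limma called 742 genes, and 18 genes passed 0.05 after adjustment. The crossed pairing, added after seeing the data, gave 803 and 11. The share of Il1r1 on its upstream-start transcript differed by 100 percentage points without Ob replicate 1 and by 1.07 without Ob replicate 2. At this depth the members have at least 108 read equivalents in each library, and the number of mice limits the precision.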
